A study of Mus musculus with 15 samples.

Results

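The 9 genes described here, Ptprc, Cd3e, Cd4, Cd8a, Lck, Cd79b, Gzma, Cd69 and Il2rg, are genes of T cells, B cells and natural killer (NK) cells. They were read in chromatin of whole mouse liver, and they are 9 of the 21887 protein-coding genes for which marks were called. They were chosen on these same libraries, for H3K4me3 and H3K27me3 at their ends in both genotypes and for H3K27me3 during regeneration. Cd69 and Il2rg were picked because H3K4me3 was called there in the knockout libraries and not in wild type, so that pattern is a description and not a finding.

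The mice were C57Bl/6, aged 8 to 12 weeks, on a normal diet, with liver taken between 9 am and noon. They were wild type (WT) or Uhrf1hepKO (KO), a knockout of Uhrf1 in hepatocytes. Neither the Cre driver nor the way regeneration was started is given in the labels. H3K4me3 had 2 WT and 2 KO libraries, and replicate 2 of each was labelled round 2. For H3K27me3, unregenerated liver gave 2 WT libraries and a single KO library, and regenerating WT liver gave 1 each at 30, 40 and 96 h. WT replicate 2 of H3K27me3 was made with the regeneration libraries and was their 0 h point. H3K9me3 had 1 library of each genotype. The labels do not say that libraries of a group came from separate animals.

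H3K4me3 is laid down at promoters that are active or ready to be used. H3K27me3, the mark of the Polycomb complex PRC2, covers promoters and long stretches of genes that are kept off. Lymphocytes are a minority in liver, so whole-liver chromatin reads their genes in hepatocytes, where they are silent, and in the immune cells that express them. A mark in such bulk chromatin can therefore stand for many cells with the mark at a low level or few cells with it at a high level, and fewer cells of a type cannot be told apart from less of the mark per cell.

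A gene counted as marked when an enriched region touched the 1 kb on either side of its annotated start. Of the 9 genes, 6 had annotated starts (Ptprc, Cd3e, Cd8a, Lck, Gzma and Il2rg, with 2 starts in Ptprc and Lck). For Cd4, Cd79b and Cd69 the gene end with more H3K4me3 over the 4 libraries was used, which need not be the start. The deposited lists hold called regions and no signal per gene, so marks are given as present or absent, with the authors' fold enrichment of each region. With 2 libraries against 2 or fewer, no test between groups was run, and the share of all genes with the same pattern is given beside each count.

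The promoters of 5 genes on which the marks below turn are shown to compare their CpG content, since promoters rich in CpG usually carry H3K4me3 whatever the cell type. The sequences are those of RefSeq for GRCm38.p6, from 250 bases before to 50 bases after the start, on the minus strand, with each CG in capitals. They lie at chrX:101268206-101268505 (Il2rg), chr1:138175077-138175376 (Ptprc, inner start), chr4:129558323-129558622 (Lck, inner start), chr9:45009562-45009861 (Cd3e) and chr13:113100932-113101231 (Gzma).
Il2rg: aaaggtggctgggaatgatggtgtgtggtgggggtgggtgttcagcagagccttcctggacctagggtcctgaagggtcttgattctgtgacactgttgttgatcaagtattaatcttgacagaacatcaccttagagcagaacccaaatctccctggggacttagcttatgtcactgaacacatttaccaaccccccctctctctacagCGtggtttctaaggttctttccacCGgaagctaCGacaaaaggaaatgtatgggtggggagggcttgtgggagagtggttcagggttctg
Ptprc: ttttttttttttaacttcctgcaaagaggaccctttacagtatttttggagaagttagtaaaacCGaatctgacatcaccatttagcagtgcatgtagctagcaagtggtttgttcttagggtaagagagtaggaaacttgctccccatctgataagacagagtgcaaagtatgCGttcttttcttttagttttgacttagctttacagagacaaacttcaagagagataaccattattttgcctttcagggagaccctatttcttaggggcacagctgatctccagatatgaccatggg
Lck: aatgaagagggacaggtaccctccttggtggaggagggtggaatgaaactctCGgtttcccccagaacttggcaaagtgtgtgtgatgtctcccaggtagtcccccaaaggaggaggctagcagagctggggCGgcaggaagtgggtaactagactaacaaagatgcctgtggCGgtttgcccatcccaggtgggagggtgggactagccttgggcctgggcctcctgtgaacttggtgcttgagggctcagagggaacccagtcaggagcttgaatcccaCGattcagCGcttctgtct
Cd3e: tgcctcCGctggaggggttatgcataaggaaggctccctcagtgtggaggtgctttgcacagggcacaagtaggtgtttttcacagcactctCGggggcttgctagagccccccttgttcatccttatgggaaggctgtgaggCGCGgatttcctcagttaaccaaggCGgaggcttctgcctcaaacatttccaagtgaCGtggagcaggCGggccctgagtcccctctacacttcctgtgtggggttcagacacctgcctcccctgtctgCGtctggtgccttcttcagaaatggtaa
Gzma: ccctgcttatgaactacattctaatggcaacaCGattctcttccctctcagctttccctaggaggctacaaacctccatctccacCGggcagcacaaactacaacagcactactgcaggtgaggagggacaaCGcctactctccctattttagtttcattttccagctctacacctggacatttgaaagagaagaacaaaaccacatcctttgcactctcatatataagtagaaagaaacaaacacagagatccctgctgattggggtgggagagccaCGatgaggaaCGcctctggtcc

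All 8 promoters of the 6 genes with annotated starts were poor in CpG. They held between 2 (Ptprc, inner start) and 8 (Cd3e) CG pairs, against a median of 13 over 21263 promoters of protein-coding genes. Il2rg and Cd8a had 3 each, Ptprc had 4 at its outer start, Gzma 5, and Lck 7 and 5 at its outer and inner start. Among the 8731 promoters with 8 or fewer CG pairs, 18.7% had H3K4me3 in all 4 libraries and 72.4% had it in none. Among the 12532 richer promoters the shares were 81.9% and 9.54%. H3K27me3 was less tied to CpG content, with all 6 libraries marked at 10.5% of the poor and 8.43% of the richer promoters. The letters AGGAAG, the core read by Ets factors, were present on either strand in 6 of the 8 promoters (both of Ptprc, both of Lck, Cd3e and Il2rg) and in 34.4% of all promoters. The Ptprc promoters overlap, and the only match in the inner one is also in the outer one. TGTGGT, the core read by Runx factors, was found in the outer Lck promoter and in Gzma and Il2rg, and in 15% of all promoters. TATAAA was present in the outer Ptprc promoter alone, and in 12.6% of all. These are matches of letters and do not show that a factor was bound.

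Nearly all hepatocyte and endothelial markers carried H3K4me3, which leaves those 2 lists little room to show a shift in cell content. The mark was present at 12 and 11 of 12 hepatocyte markers in replicates 1 and 2 of both genotypes, and at 11 of 12 endothelial markers in all 4 libraries. Other lists were less full. Of 12 stellate and fibroblast markers, 9 in WT and 7 in KO had it in replicate 1, and 9 and 10 in replicate 2. Of 10 bile duct markers, 5 had it in replicate 1 and 3 in replicate 2 of both genotypes. Of 17 myeloid markers, 3 in WT and 1 in KO had it in replicate 1, and 7 and 11 in replicate 2. Uhrf1 itself had H3K4me3 at its start in all 4 libraries, and since the labels do not say which part of the gene is deleted, this does not check the genotype. The lists differed in size by replicate more than by genotype. Replicate 1 lists held 72177 (WT) and 73431 (KO) H3K4me3 peaks, and replicate 2 lists held 25714 and 27006. In replicate 2 the antibody tag named H3K9me3 while the title named H3K4me3, and the libraries were grouped by title. H3K27me3 lists held between 10486 and 13964 islands covering 378 to 500 Mb.

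At H3K4me3, 2 of the 9 genes were marked in each WT library, 4 in KO replicate 1 and 5 in KO replicate 2. Over all protein-coding genes the marked share was 63.3% and 56.8% in the WT libraries and 62.4% and 59.5% in the KO libraries. Ptprc and the end of Cd4 were marked in all 4 libraries, as were 56.1% of all genes. Each count of the 9 genes thus includes Cd4, where the peak lay over the neighbouring gene Gpr162. The other end of Cd4 had no H3K4me3 within 1 kb in any library. Cd69 and Il2rg were marked in both KO libraries and unmarked in WT, a pattern held by 24 genes, or 0.11% of all. The opposite pattern, both WT libraries and neither KO, was held by 4 genes (0.0183%) and by none of the 9. Cd79b lay just outside the choice, with H3K4me3 in KO replicate 2 alone, as in 118 genes (0.539%). Cd3e, Cd8a, Lck and Gzma had no peak in the window in any of the 4 libraries, as in 35.2% of all genes.

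**Figure D1:**
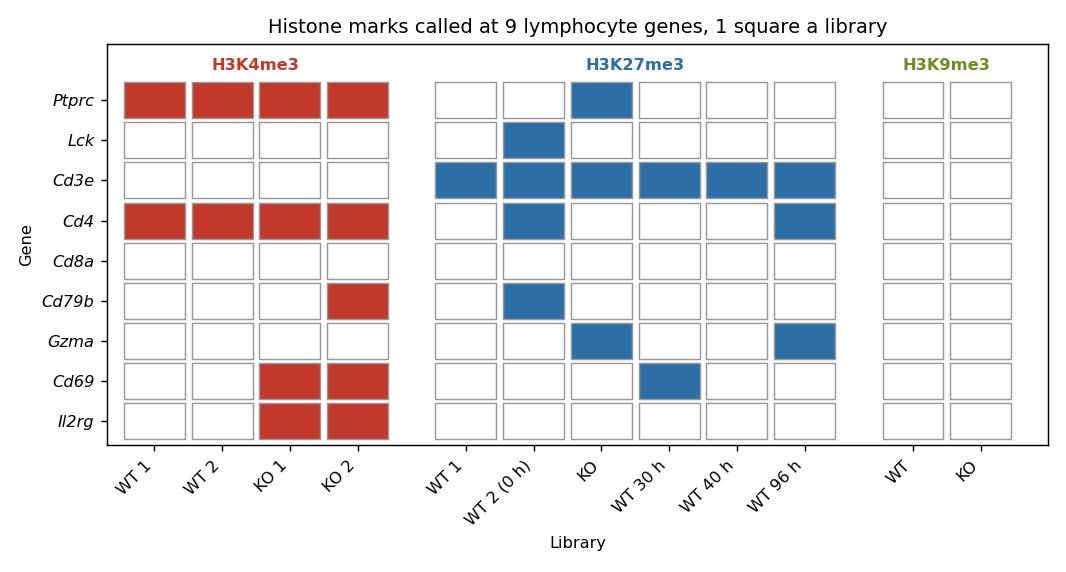
Calls of H3K4me3, H3K27me3 and H3K9me3 (columns, 1 per library) at the 9 genes (rows). A filled cell is a region touching the 1 kb on either side of the start or chosen gene end (for H3K9me3, broad peaks over at least 10% of the body). Ptprc and Cd4 are filled in all 4 H3K4me3 columns, Cd69 and Il2rg in both KO columns alone, Cd3e in all 6 H3K27me3 columns, and no gene in an H3K9me3 column.

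Il2rg encodes the common gamma chain shared by the receptors for interleukins 2, 4, 7, 9, 15 and 21. It lies on chrX:101264385-101268255 and starts at 101268255 on the minus strand, at the promoter printed above. In KO replicate 1 a peak of 258 bp with a fold enrichment of 4.47 and a −log10 q of 5.86 lay 109 bp downstream of the start. In KO replicate 2 a peak of 173 bp with a fold of 4.35 lay 116 bp downstream, and a second of 174 bp with a fold of 5.37 lay 475 bp downstream. The nearest peaks in WT replicates 1 and 2 were 5376 and 5813 bp upstream of the start, beside Med12, which begins at 101274091. The KO peaks were thus small and among the weaker ones in their lists, where 21.2% of KO replicate 1 peaks and 11.9% of KO replicate 2 peaks had a lower q on the −log10 scale than 5.86 and 6.67. In the WT lists of the same replicates, 23.8% of WT replicate 1 and 18% of WT replicate 2 peaks were under these values. Whether a weak signal at Il2rg would have been called in WT was not tested.

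Cd69 encodes an early activation antigen of lymphocytes that is also kept on the lymphocytes that reside in tissue. It lies on chr6:129267324-129275375, and its higher end was the end with H3K4me3. KO replicate 1 had a peak at 129275061-129275377 with a fold of 4.47 and a −log10 q of 5.86, over that end. KO replicate 2 had a peak at 129274937-129275299 with a fold of 5.44 and a −log10 q of 6.77, which ended 76 bp inside it. In WT replicates 1 and 2 the nearest peaks were 20315 and 33281 bp away. The highest folds at Cd69 and Il2rg were thus close in each KO library, while the Cd69 peaks were longer, 317 and 363 bp in KO replicates 1 and 2. Since both genes were picked for this difference, the 4 libraries cannot serve to test it.

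Cd79b encodes a chain of the B cell receptor that carries its signal into the cell. It lies on chr11:106311341-106314562. KO replicate 2 had a peak of 146 bp with a fold of 4.66, 70 bp inside the higher end, and another with a fold of 3.99, 910 bp inside it. Both were weak, with a −log10 q of 4.88 and 3.28, and neither passed a −log10 q of 5. In WT replicate 1, WT replicate 2 and KO replicate 1 the nearest peaks were 37684, 40887 and 37686 bp from that end.

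Ptprc encodes CD45, the phosphatase found on nearly all white blood cells. It spans 112.9 kb at chr1:138062859-138175756, with starts at 138175305 and 138175126 on the minus strand. The inner start lay in a peak in all 4 libraries, with folds of 4.08 and 5.3 in WT replicates 1 and 2 and 4.21 and 10.5 in KO replicates 1 and 2. The peak over the start was 164, 150 and 139 bp long in the first 3 of these in the order WT replicate 1, WT replicate 2 and KO replicate 1, and 1610 bp in KO replicate 2. The peak length within 1 kb of that start was 648, 833, 509 and 1096 bp in WT replicates 1 and 2 and KO replicates 1 and 2. KO replicate 1 was thus the lowest and KO replicate 2 the highest of the 4, and the genotypes overlapped.

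Lck encodes the kinase that begins signalling from the T cell receptor. It lies on chr4:129548344-129573641, with an outer start at 129573641 and an inner start at 129558372, both on the minus strand. No peak lay within 1 kb of either start. The strongest peak in the gene lay downstream of the inner start in all 4 libraries. It began 1219 and 1293 bp from that start in WT replicates 1 and 2, with folds of 14.9 and 18.6, and 1256 and 1331 bp from it in KO replicates 1 and 2, with folds of 14.7 and 20.7. The folds differed between replicates 1 and 2 more than between genotypes. With a window of 2 kb Lck was marked in all 4 libraries, and only 43 of the 17492 genes with an annotated start (0.246%) were marked in all 4 at 2 kb and had no mark at 1 kb. Other peaks upstream of the outer start lay beside or in Fam167b.

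**Figure D2:**
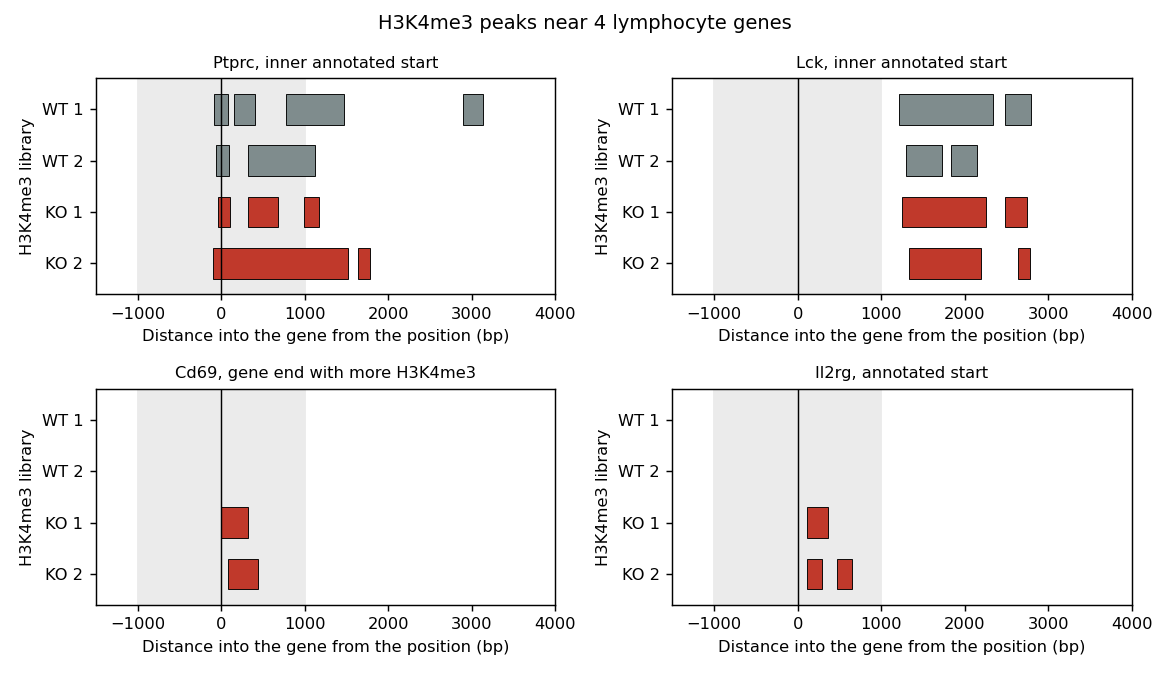
H3K4me3 peaks of the 4 libraries at 4 of the genes, drawn as bars against distance into the gene in bp from the start or chosen end (negative values lie outside it). Grey shading marks the 1 kb on either side in which a mark was called. KO peaks stand alone at Il2rg and Cd69, and all 4 libraries have peaks at Ptprc. The strongest Lck peak of each library begins between 1219 and 1331 bp past the inner start.

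Cd4 and Cd8a encode the coreceptors of helper and cytotoxic T cells. The mark at the lower end of Cd4 (chr6:124864693-124888247) came from a peak over the neighbouring gene Gpr162. That peak had folds of 9.04 and 7.34 in WT replicates 1 and 2 and 8.68 and 9.79 in KO replicates 1 and 2, and stopped 33, 67, 71 and 220 bp inside the end of Gpr162. With a window of 500 bp Cd4 was marked in none of the 4 libraries. A peak inside Cd4 itself lay nearer to its other end in all 4 libraries, 5271 and 5905 bp from it in WT replicates 1 and 2 and 5295 and 5476 bp in KO replicates 1 and 2. The highest folds of that inner peak were 10.5 and 5.39 in the WT libraries and 15.8 and 5.8 in the KO libraries, so replicates differed more than genotypes. Cd8a, at chr6:71373427-71379171, was bare: the nearest H3K4me3 peak lay at least 45760 bp away in each library, and the nearest H3K27me3 island at least 257427 bp away.

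Cd3e, a chain of the signalling part of the T cell receptor, was the 1 gene of the 9 that had H3K27me3 at its start in all 6 libraries, as did 2257 genes (10.3% of all). It lies on chr9:44998735-45009663 and starts at 45009611 on the minus strand, and islands covered the whole gene in each library. The islands were 45, 29 and 24 kb long in WT replicate 1, WT replicate 2 and KO, and 48, 21 and 19 kb long at 30, 40 and 96 h. Their folds were 1.94, 1.74 and 1.82 in WT replicate 1, WT replicate 2 and KO, and 1.53, 1.46 and 1.85 at 30, 40 and 96 h. The 30 and 40 h values were the lowest, in lists whose median fold was also the lowest of the 6, 1.45 at both times against 1.56 to 1.63 in the others. The neighbouring genes Cd3g and Cd3d, which encode further chains of the same complex, were marked in all 6 libraries too. In WT replicate 1 and at 30 h a single island held Cd3e, Cd3d and Cd3g, and in the other 4 libraries a second island held Cd3d and Cd3g. No H3K4me3 peak lay within 20027 bp of the Cd3e start in any library.

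H3K27me3 at the start or chosen end was found at 1 of the 9 genes in WT replicate 1, 4 in WT replicate 2 and 3 in KO. The count in WT replicate 2 includes Cd4 at the end beside Gpr162. Over all genes the shares were 21.7%, 26.9% and 22.4%. Ptprc and Gzma had it in KO and in neither WT library, as did 199 genes (0.909%). None of the 9 had it in both WT libraries and not in KO, as did 290 genes (1.32%). KO has a single library, so no spread within that group is known. Its control library was the one used for WT replicate 1, judged by equal control counts in 414 of 414 islands with the same bounds. Another was used for WT replicate 2. Per read of the shared control, WT replicate 1 had 0.576 reads and KO 0.642, so KO was the deeper. The part that depth had in these calls was not tested.

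At Ptprc the difference lay in how far islands reached, not in whether the gene had the mark. The KO island, at 138052001-138179000, was 127 kb long with a fold of 1.59 and ran past both ends of the gene. In WT replicate 1 an island of 99 kb with a fold of 1.54 covered 79% of the gene and stopped 23126 bp short of the outer start. In WT replicate 2, 3 islands covered 50.6% of it and the nearest stopped 27126 bp short. At 30, 40 and 96 h islands covered 30.2%, 21.3% and 76.3% of Ptprc, and the nearest ended 24126, 42126 and 6126 bp from that start. All 6 libraries thus had H3K27me3 in the body of Ptprc, and KO alone had it at the start, as did 88 genes (0.402%), where all 4 H3K4me3 libraries had a peak. Islands are joined across gaps of up to 4000 bp, so an island's reach can change with a small change in reads. Over the whole genome KO islands also covered the most, 500 Mb against 417 and 483 Mb in WT replicates 1 and 2.

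Gzma encodes granzyme A, a protease of cytotoxic T and NK cells. It lies on chr13:113093824-113100981, starts at 113100981 on the minus strand, and lies within the bounds of Cdc20b on the other strand. In KO an island of 103 kb at 113026001-113129000, with a fold of 1.81, covered all of Gzma. In WT replicates 1 and 2 the nearest islands ended 10981 and 12981 bp from the start and covered 0% of the gene. At 30 and 40 h the nearest islands ended 7981 and 6981 bp from the start, and at 96 h an island of 26 kb with a fold of 1.38 lay over it and covered 13.7% of the gene. Gzma was thus covered whole in KO alone, and marked in KO and at 96 h alone, as were 44 genes (0.201%). That pattern did not hold with all settings. Gzma stayed marked in 2 libraries with windows of 500 bp and 2 kb, an FDR of 1e-05 and an overlap of 1000 bp. Gzma was marked in 4 libraries with either gene end, and in 1 library with islands of a fold of at least 1.5. It had no H3K4me3 at either end, so the setting by the end with more H3K4me3 read both ends too and gave the same 4. The nearest H3K4me3 peak lay between 54362 and 54535 bp from its start.

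**Figure D3:**
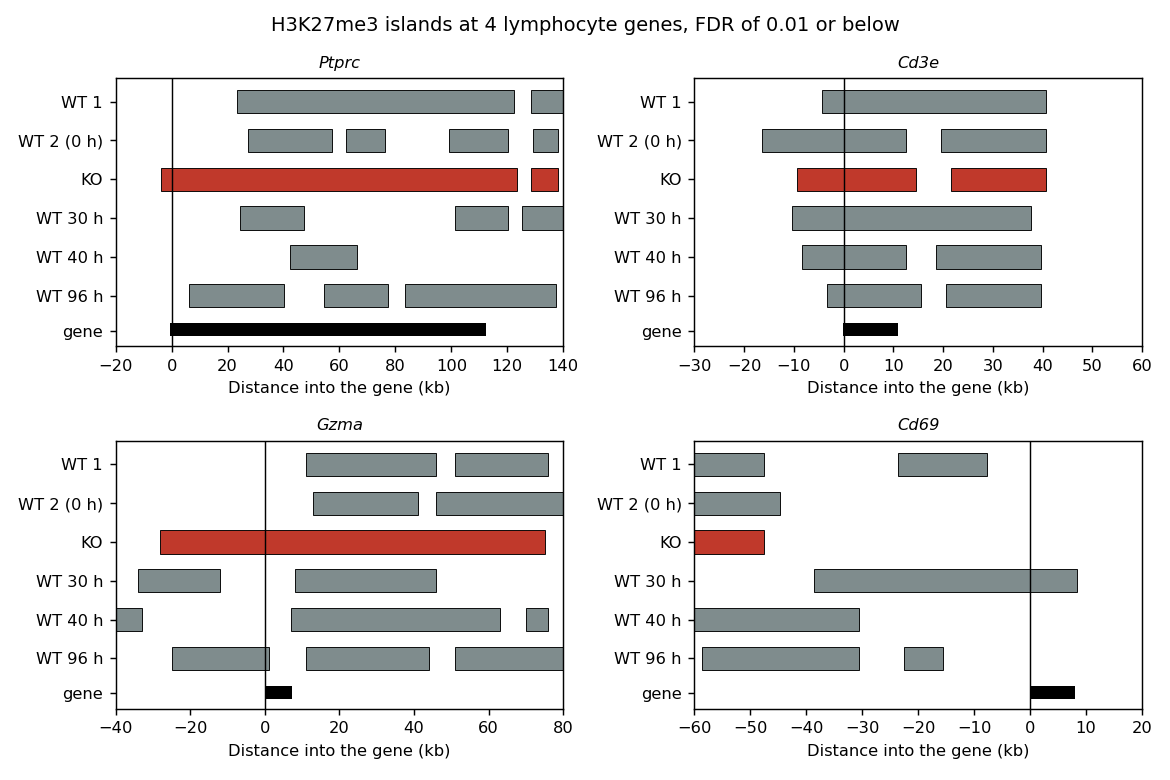
H3K27me3 islands (bars) at Ptprc, Cd3e, Gzma and Cd69 in the 6 libraries, against distance into the gene from the outer start or chosen end in kb, with the gene as a black bar. The KO island alone runs past the start of Ptprc, Cd3e is covered in all 6 libraries, the KO island spans Gzma where the WT baseline islands stop short, and Cd69 is covered at 30 h alone.

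During regeneration H3K27me3 was counted at the start or chosen end of the 9 genes. The number marked was 4 at 0 h, 2 at 30 h, 1 at 40 h and 3 at 96 h. The counts at 0 and 96 h include Cd4, where islands reached only the end chosen beside Gpr162. The share of all protein-coding genes was 26.9% at 0 h, 17% at 30 h, 16.5% at 40 h and 24.1% at 96 h. The counts of the 9 genes thus moved in the same order as the shares of all genes. Cd4, Lck and Cd79b were marked at 0 h and at neither 30 nor 40 h, as were 1813 genes (8.28%). These 3 genes had no mark in WT replicate 1 either, so the 2 unregenerated WT libraries differed from each other at the same genes. The 0 h list was made against another control library than the later times, since 1 of 133 islands with equal bounds at 0 and 30 h had the same control count, against 250 of 250 at 30 and 40 h. Control and time cannot be told apart here. Depth differed among the later times too, with 0.369, 0.342 and 0.438 reads per read of their shared control at 30, 40 and 96 h. The part that depth had in these counts was not tested.

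At Lck the 0 h island was 34 kb long with a fold of 1.63, covered the whole gene and also held Fam167b. No island touched Lck in any of the other 5 libraries. At Cd79b the 0 h island was 82 kb long with a fold of 1.64 and also held Gh, Scn4a, Prr29 and Icam2, and no other library had one over the gene. Both genes thus had the mark at 0 h alone of the 6 libraries, as did 595 genes (2.72%). At Cd4 islands at 0 h and at 96 h, with folds of 1.99 and 2.02, ended at the same base, 124869000. They covered 18.3% of Cd4 at its lower end and also held P3h3 and Gpr162, so this mark was shared with the neighbours.

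Cd69 and Gzma showed other courses. Cd69 had an island at 30 h alone, as did 90 genes (0.411%). It was 47 kb long and covered the gene, with a fold of 1.27, and 9.7% of the islands in that list had a lower fold. Gzma was marked at 96 h and in KO, and Il2rg and Cd8a had no H3K27me3 in any of the 6 libraries, as did 67.9% of all genes. Il2rg lies on the X chromosome, which was nearly free of islands in each list: between 8 and 22 islands were found there. Of 966 genes on X, 0% at 30 and 40 h and at most 1.14% (at 96 h) were marked, against 17.3% to 28.1% of genes elsewhere, so the absence of H3K27me3 at Il2rg says little of that gene.

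H3K9me3 was absent from all 9 genes. Broad peaks covered 0% of each gene body in WT and in KO, while 3.08% and 2.82% of all genes had at least 10% of their body covered. The nearest broad peaks to Ptprc lay 6006 bp away in WT and 6021 bp away in KO. Cd3e had one 4933 bp away in WT and Cd8a one 4223 bp away in KO. None of the 9 genes thus showed a difference in this mark between the genotypes.

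The other 77 genes of the lymphocyte lists put these values in context, since Cd69 and Il2rg were the only 2 lymphocyte genes of the lists that had H3K4me3 in each KO and no WT library. In replicate 1 the mark was at 29 of the 77 in WT against 26 in KO. In replicate 2 it was at 19 against 38. Within replicate 1, 1 gene was marked in KO alone (Vav1) and 4 in WT alone (Nfatc2, Runx3, Ebf1 and Blk), or 1.3% and 5.19%, where over all genes 0.74% were marked in KO alone and 1.59% in WT alone. Within replicate 2, 19 genes, or 24.7%, were marked in KO alone and 0 in WT alone, where over all genes 2.91% were marked in KO alone and 0.192% in WT alone. The direction thus differed between the replicates, and no count that pools them is given. The 19 genes had folds between 3.25 and 6.53 in KO replicate 2, with a median of 5.08, and 10 of them had no mark in either replicate 1 library.

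The B cell genes moved most between the replicate 2 libraries. Of 16, WT replicate 2 had 1 marked and KO replicate 2 had 11. In replicate 1 the order was the other way round, with 7 in WT and 5 in KO. The 10 genes marked in KO replicate 2 and not in WT replicate 2, named after their values were seen, included Btk, a kinase of the B cell receptor pathway, with a fold of 5.8. Blnk, the adaptor of the same pathway, was marked in both replicate 1 libraries as well, with folds of 7.58 in WT and 7.63 in KO. Cr2, the complement receptor of B cells, had folds of 13.1 and 11.8 in WT and KO replicate 1 and 5.61 in KO replicate 2.

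T cell lists moved less. Of 14 genes of the T cell receptor complex and its coreceptors, 1 was marked in WT replicate 1, 1 in KO replicate 1, 1 in WT replicate 2 and 3 in KO replicate 2. Of 17 genes of T cell receptor signalling, 7 and 8 had the mark in WT and KO replicate 1, and 7 and 11 in replicate 2. Of 17 genes of cytotoxic and NK cells, 2 and 2 were marked in replicate 1, and 0 and 1 in replicate 2. A list of 11 genes held receptors that use the common gamma chain and the signalling genes Jak1, Jak3, Stat5a and Stat5b. It went from 5 marked in WT to 6 in KO in replicate 1 and from 5 to 7 in replicate 2. The genes marked in WT were Il4ra and the signalling genes, which were marked in each library. Il2rg was among those added in KO. Lymphoid transcription factors were marked at 9 and 8 of 11 in replicate 1 and 7 and 10 in replicate 2. Markers of macrophages and other myeloid cells showed the same split between the replicates, from 3 of 17 in WT to 1 in KO in replicate 1, and from 7 to 11 in replicate 2. The part that immune cell content had in the H3K4me3 calls at Cd69 and Il2rg was not tested.

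**Figure D4:**
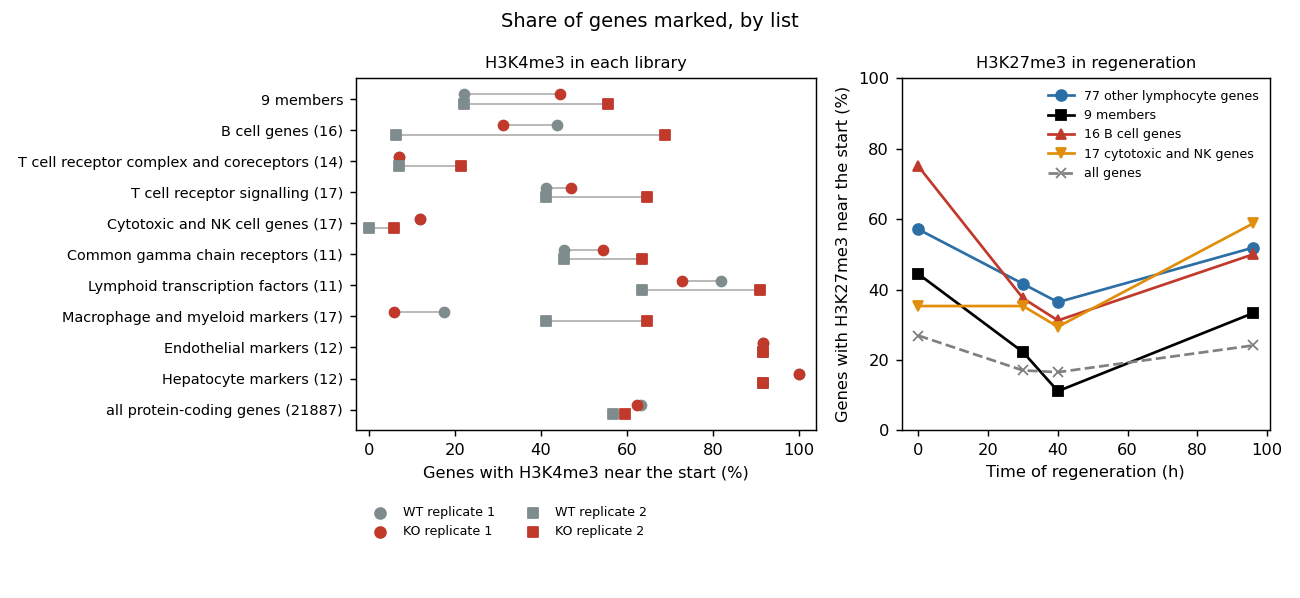
Left, the share of each gene list with H3K4me3 near the start in the 4 libraries (grey WT, red KO, circles replicate 1, squares replicate 2). KO points hide equal WT points. Right, the share with H3K27me3 near the start against time of regeneration in h, 1 library a time. B cell genes differ between replicate 2 libraries and less, in the other direction, between replicate 1 libraries, while hepatocyte and endothelial markers are equal within each replicate.

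H3K27me3 over the other 77 lymphocyte genes was found at 35 (45.5%) in WT replicate 1, 44 (57.1%) in WT replicate 2 and 42 (54.5%) in KO. It was found at 32 (41.6%) at 30 h, 28 (36.4%) at 40 h and 40 (51.9%) at 96 h. These shares were above those of all genes in each library, and hepatocyte markers had 0 of 12 in each. High shares were not particular to lymphocyte genes. In WT replicate 1, WT replicate 2 and KO the mark was at 11, 12 and 13 of 17 myeloid markers, 9, 9 and 10 of 12 stellate and fibroblast markers, 6, 8 and 6 of 10 bile duct markers, and 3, 5 and 7 of 12 endothelial markers. B cell genes had 6 and 12 of 16 in WT replicates 1 and 2, 8 in KO, and 6, 5 and 8 at 30, 40 and 96 h. Genes of cytotoxic and NK cells had 5 and 6 of 17 in WT replicates 1 and 2, 7 in KO, and 6, 5 and 10 at 30, 40 and 96 h. The 2 WT libraries thus differed at B cell genes by as much as 0 h differed from 30 h.

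Besides Ptprc and Gzma, the 1 other lymphocyte gene of the lists marked by H3K27me3 in KO and in neither WT library was Xcl1, a chemokine made by cytotoxic and NK cells. Its island had a fold of 1.42 in KO and 1.42, 1.62 and 1.37 at 30, 40 and 96 h. Xcl1 was thus marked in each library but the 2 from unregenerated WT liver. Tnfrsf13c, the receptor for the B cell survival factor BAFF, was the 1 lymphocyte gene marked in both WT libraries and not in KO, with folds of 2.19 and 2.46, and it was also free of islands at 30 and 40 h and marked at 96 h with a fold of 2.37. A single gain and a single loss among 77 genes, 1.3% each, are near the 0.909% and 1.32% of all genes. Markers of other liver cells went both ways. The mark was gained in KO at 1 of 17 myeloid markers (Cd163) and 2 of 12 endothelial markers (Clec4g and Tek). Of 12 stellate and fibroblast markers, 2 gained it (Dcn and Col3a1) and 1 lost it (Reln). Of 10 bile duct markers, 1 lost it (Prom1). Beside Cd79b, the B cell genes Cd22, Cd72, Blnk, Fcer2a and Tnfrsf13c were marked at 0 h and at neither 30 nor 40 h. That made 6 of 16 B cell genes (37.5%), against 8.28% of all genes. Only genes marked at 0 h could show this pattern, and 12 of 16 B cell genes (75%) were, against 26.9% of all genes. The pattern also held for 4 of 10 bile duct markers and for 9.09% to 18.2% of the other lymphocyte lists. Cd22, Blnk and Fcer2a had no mark in WT replicate 1 either.

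The pattern of calls over the 10 libraries of H3K4me3 and H3K27me3 was compared with that of the other lymphocyte genes. Cd3d, Cd3g and Pax5, a transcription factor of B cells, had the same call as Cd3e in all 10, among 1304 genes that did (5.96%). Cd22, an inhibitory receptor of B cells, was among the 6 genes (0.0274%) with the calls of Cd79b in all 10. Ctsw, a protease of cytotoxic cells, and Klrb1c, the NK cell receptor NK1.1, were among the 251 (1.15%) with the calls of Lck. Cd8a shared its lack of both marks with 12 lymphocyte genes, Cd8b1, Cd28 and Foxp3 among them, and with 18.4% of all genes. Btk and Cd27 had the same call as Il2rg in 9 of 10 libraries and as Cd69 in 8, differing from Il2rg only in lacking the mark in KO replicate 1. No other gene had the same calls as Cd69 in all 10 libraries.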

How the data were processed

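ChIP-seq lists of 12 libraries for 3 marks in mouse liver were used. The 3 input samples have no list of their own. The submitters' processing notes name Trimmomatic, FastQC 0.11.5 and BWA for reads, Picard, MACS2 and SICER, and the builds GRCm38.p4 and mm10. Regions were called per library. The deposited H3K4me3 and H3K9me3 lists have the MACS2 layout and give the authors' score, fold enrichment and −log10 of the p-value and q-value of each peak. The deposited H3K27me3 lists are SICER islands (1000 bp windows, gaps of 4000 bp, per the file names) and give the authors' raw read counts, p-value, fold ratio over scaled control and FDR. The depth of the libraries is not given, and no counts exist outside called regions. No interval is therefore given and no count test was run. The counts and folds of islands give the reads of a library per read of its control. That ratio compares depth only between libraries that share a control.

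Islands with an FDR of 0.01 or below were used. A mark was called where a region held 1 bp or more of the 1000 bp on either side of a start. RefSeq starts served 17492 genes. The end with more H3K4me3 over the 4 libraries served 2815, and both ends served 1580. A gain was a mark in each KO and no WT library, and a loss the reverse. The 9 genes and the lists of 149 genes were chosen with earlier results of these data known. From each list up to 5 genes were to be named, those that separated the genotypes first and those that differed at both 30 and 40 h next. Most alike meant the most equal calls over 10 libraries. Genes named otherwise are said to be. Overlap code was tested on simulated lists. Tools were Python 3.11.15, numpy 2.4.6, pandas 2.3.3 and matplotlib 3.10.9. Some genes of the lists are counted and not reported by name here.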

Additional observations from a re-analysis of the deposited data

How the results depend on the processing

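Windows of 500 bp and 2 kb, gene ends in place of starts, longer overlaps, a −log10 q of 5, an FDR of 1e-05, a fold of 1.5 and leaving out each H3K4me3 library and each unregenerated WT H3K27me3 library were tried. H3K4me3 gains stayed at 2 (3 without KO replicate 1) and losses at 0. Leaving out a library only loosens the rule for a gain, by which Cd69 and Il2rg were picked. Gains could then not fall below 2, so those counts do not test the pattern. Of 81 values for counts of the 9 genes, those among them, 73 stayed within 1.5 times. With either gene end, H3K27me3 gains fell to 1 (Gzma, since the far end of Ptprc was marked in WT too), and the counts were 4 at 30 h and 2 at 40 h. With the H3K4me3 end for each gene the 40 h count was 2, where Gzma, without H3K4me3 at either end, was again read at both. With a fold of at least 1.5 the counts were 1 at 30 h and 0 at 40 h. Leaving out 1 WT library of H3K27me3 moved losses over 0 to 3, with 3 (Cd4, Lck and Cd79b) without WT replicate 1, and the number marked over 3 to 6, with 3 without WT replicate 2. Cd4 lost its H3K4me3 at 500 bp, Lck had it in 4 libraries at 2 kb, Cd79b lost it at a −log10 q of 5, and Cd69 lost its 30 h island at a fold of 1.5. Gzma had H3K27me3 in 4 libraries with either end or the H3K4me3 end and in 1 at a fold of 1.5, against 2, and Ptprc in 5 with either end, against 1. No paired test was run, since no test between groups was run. The labels put replicate 2 of H3K4me3 in both genotypes in round 2 and give replicate 1 no round, and within-replicate counts stand in the report. With 1 KO library of H3K27me3 and 1 per time, called regions of unknown absolute depth limit each comparison to presence or absence.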
